A study of Mus musculus with 10 samples.

Results

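The 34 genes described here are antiviral genes that type I interferons induce. They were chosen by name, and each was read from probe sets annotated to that gene alone. Where a gene had several, the brightest on average stands for it. Probe sets of that kind were found for 31 of the 34 genes, 54 probe sets in all, among 18193 genes on the array. Isg15 was read only by a probe set annotated to more than 1 gene, no probe set was assigned to Oas1g or Ifi44, and these 3 genes were not analysed here. Oas1a has near-identical neighbours in its gene cluster, Oas1g among them, so its signal is uncertain as to its source.

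The arrays profiled the hippocampi of 10 SJL/J mice, adult females obtained at 8 to 10 weeks of age, 2 days after an axonal lesion, with 1 array per mouse. The AxL group (5 mice) received the lesion alone, and the TPlp+AxL group (5 mice) received T cells specific for proteolipid protein, a major myelin protein, by adoptive transfer before the same lesion. Every mouse was therefore lesioned, and neither an unlesioned group nor a group given T cells of another specificity was analysed here. The study asked which hippocampal transcripts differ when myelin-specific T cells are present after the lesion. RNA came from the whole hippocampus, so a lower signal from fewer cells of a type cannot be told apart from less RNA per cell, and any transferred cells in the tissue share 1 signal with the resident cells.

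Type I interferons, the interferon alpha family and interferon beta, bind a shared receptor on nearly all cells. The receptor's kinases activate STAT proteins, and STAT2 joins IRF9 in a complex that binds interferon-stimulated response elements (ISREs) in promoters and switches on genes that block viral entry, replication and release. Interferon gamma, made by T cells and NK cells, acts through another receptor and gamma-activated sites (GAS), and many genes respond to both kinds of interferon. In the brain, microglia, astrocytes, endothelium and neurons can all switch on this program.

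Promoter sequences are shown first because they hold the element by which these genes are usually recognised. RefSeq promoter windows of mouse assembly GRCm38.p6, from 250 bases before to 50 bases after the annotated start, were found for 28 of the 34 genes. The ISRE core, GAAANNGAAA on either strand, was present in 12 of the 28 genes (42.9%), against 3.99% of 27025 genes and 3.44% of 32851 windows. The GAS core, TTCNNNGAA on either strand, was present in 7 of the 28 (25%), against 9.55% of genes and 8.3% of windows. The motifs overlapped or directly adjoined each other in 24 windows of the whole table. Stretches from 6 promoters follow, read along the gene's own strand with each match to the ISRE core in capitals; capitals that read TTTC are the core on the opposite strand. The first 5 belong to the genes with the largest change among those that hold the core, and Trim21 was added after its values were seen, because it alone passed the test.
Ifit1 (chr19:34640765-34640833, plus strand): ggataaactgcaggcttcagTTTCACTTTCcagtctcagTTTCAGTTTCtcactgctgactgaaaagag
Bst2 (chr8:71537567-71537622, minus strand): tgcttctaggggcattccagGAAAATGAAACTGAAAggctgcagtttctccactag
Ifitm3 (chr7:141010715-141010762, minus strand): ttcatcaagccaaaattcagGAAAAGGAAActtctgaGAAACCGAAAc
Ifit3 (chr19:34583353-34583436, plus strand): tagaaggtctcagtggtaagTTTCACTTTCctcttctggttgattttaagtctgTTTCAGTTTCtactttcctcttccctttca
Rsad2 (chr12:26456543-26456592, minus strand): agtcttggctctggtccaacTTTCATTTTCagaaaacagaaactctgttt
Trim21 (chr7:102565453-102565489, minus strand): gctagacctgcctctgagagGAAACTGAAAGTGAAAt

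In Ifit1, Ifit3 and Ifitm3 the pair of matches was separated by other sequence, in Bst2 and Trim21 the matches overlapped, and Rsad2 held 1 match. The matches of Ifitm3 and Trim21 lay after the annotated start, and those of Ifit1, Ifit3, Bst2 and Rsad2 lay before it. A match is a run of letters and was not tested as a binding site. The core was not found in the windows of Ifi35, Oasl2, Xaf1, Samd9l and Ifit2, which were among the genes with the largest changes, and no window was matched to Rtp4 or Usp18. Among the measured genes with a window, the 10 with an ISRE core had a median log2 change of 0.37 (0.09 to 0.70) and the 15 without it a median of 0.25 (-0.13 to 0.99), so the first range lay inside the second.

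Signals are log2 values, so a change of 1 is a fold of 2, and a change is the TPlp+AxL mean minus the AxL mean. The median signal of the arrays ran from 7.875 to 7.900 in AxL and from 7.903 to 7.920 in TPlp+AxL. Each TPlp+AxL median was thus slightly above each AxL median, and the values were not rescaled in the main test. Markers of hippocampal neurons averaged 11.43 to 11.55 in AxL mice and 11.35 to 11.48 in TPlp+AxL mice. Markers of the choroid plexus, a tissue next to the hippocampus, set 3 arrays apart. Their mean log2 signal was 10.35 in AxL 3, 9.44 in AxL 5 and 9.57 in TPlp+AxL 1, against 8.08 to 8.20 in the other 7 arrays. Values without these 3 arrays are given for the antiviral genes, the pathway lists and the T cell and monocyte markers. Here a gene is said to have risen or fallen only where the Benjamini-Hochberg adjusted p from limma, over all 45037 probe sets, was under 0.05.

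The antiviral genes had higher mean signals in TPlp+AxL than in AxL in 30 of 31 cases, but 1 of them, Trim21, passed the test. A positive change was seen for 37.3% of all genes, and 0.978% of all genes (178) rose. The median log2 change was 0.31 over the 31 genes, with a range from -0.13 to 0.99, against -0.03 over all genes. None of the 31 fell, where 51 of all 18193 genes did, so a count of 0 does not set these genes apart. At an unadjusted limma p under 0.05, which has no correction for the number of tests, 24 of the 31 were higher and 0 were lower, against 5.76% of all genes higher. All 5 TPlp+AxL arrays lay above all 5 AxL arrays for 7 genes (Irf7, Oas1a, Oas3, Trim21, Samd9l, Rsad2 and Sp100), against 2.20% of all genes. Without AxL 3, AxL 5 and TPlp+AxL 1, 0 of the 31 passed the adjusted threshold in limma, 1 of all genes (0.00550%) did so, 23 of the 31 had an unadjusted p under 0.05, and the median log2 change was 0.39.

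**Figure D1:**
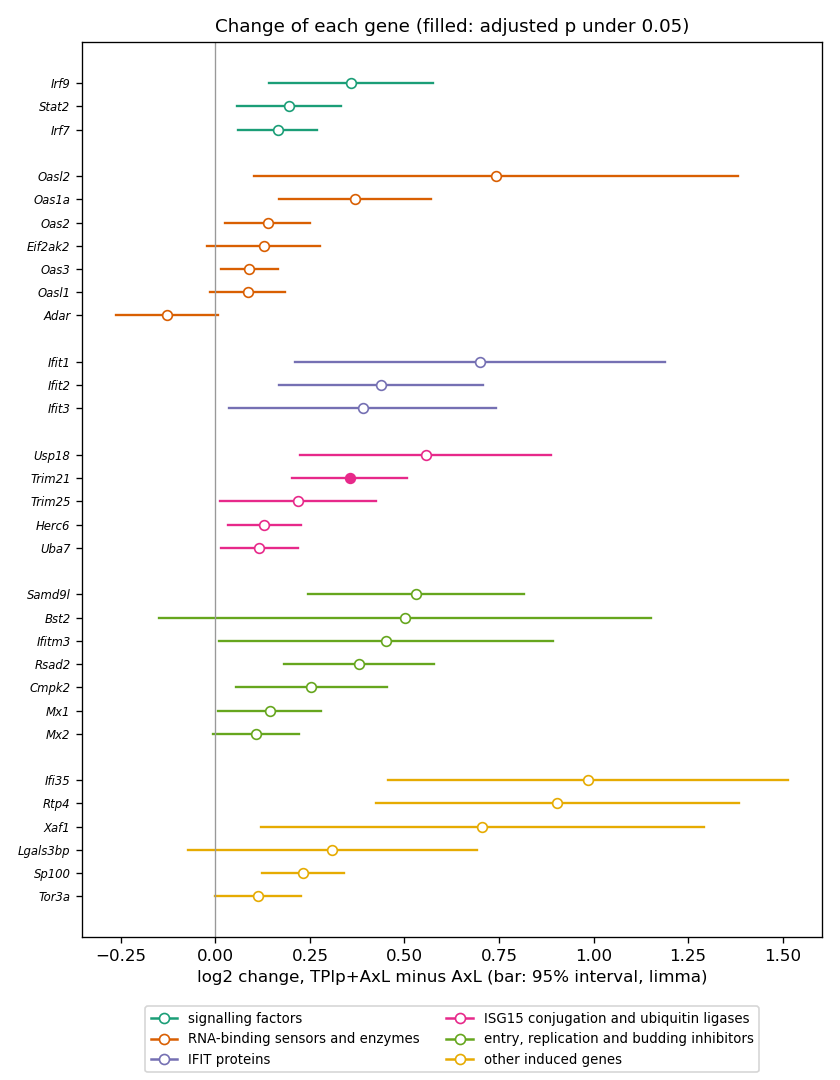
Log2 change of each of the 31 genes (horizontal axis, TPlp+AxL mean minus AxL mean, 5 mice a group) with its 95% interval from limma, grouped and coloured by role. The filled point, Trim21, is the gene with an adjusted p under 0.05, and Adar is the one gene with a negative change.

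Trim21 encodes a ubiquitin ligase that binds the constant part of antibodies inside cells and sends antibody-coated viruses for degradation. Its log2 signals were 8.76, 8.81, 8.85, 8.75 and 8.78 in AxL mice 1 to 5 and 8.97, 8.98, 9.35, 9.17 and 9.25 in TPlp+AxL mice 1 to 5. The groups did not overlap, and TPlp+AxL 3 was the highest. Trim21 rose by 0.36 (SE 0.07, 95% interval 0.20 to 0.51), a fold of 1.28 (limma adjusted p = 0.0392). Its other probe set changed less, from 7.40 to 7.5 on average (log2 change 0.09, limma adjusted p = 0.273), and the mean of both gave 0.22. The call was lost when any of AxL 1, AxL 2, AxL 3, AxL 4, AxL 5, TPlp+AxL 3, TPlp+AxL 4 or TPlp+AxL 5 was left out, with limma adjusted p from 0.0598 to 0.120. It was kept without TPlp+AxL 1 (0.0291) and without TPlp+AxL 2 (0.0209). With array medians subtracted the Trim21 change was 0.33 and the call was lost (limma adjusted p = 0.0504).

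The signalling factors that carry the interferon signal to the nucleus all had positive changes, and 0 of 3 passed the test in limma. Irf9, the DNA-binding subunit of the STAT2 complex, averaged 8.44 ± 0.10 (SD, n = 5) in AxL and 8.80 ± 0.23 in TPlp+AxL, a change of 0.36. Stat2, its partner, changed by 0.19 (0.09 on its other probe set), and Irf7, which amplifies interferon alpha production, by 0.16. The Irf7 groups did not overlap, although its change was the smallest of the 3. Each had an unadjusted p under 0.05, and the adjusted p ran from 0.143 to 0.203 in limma.

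The 3 measured IFIT genes encode proteins that bind foreign RNA or the translation machinery. Their median log2 change was 0.44, each had an unadjusted p under 0.05, and 0 passed the test in limma. For Ifit1 the log2 signals were 8.31, 8.65, 8.45, 8.49 and 8.43 in AxL mice and 8.95, 8.49, 10.08, 9.15 and 9.16 in TPlp+AxL mice. In 4 TPlp+AxL mice Ifit1 was above every AxL mouse, and TPlp+AxL 2 lay inside the AxL range. The Ifit1 change was 0.70 (SE 0.22, limma adjusted p = 0.20). Ifit2 gave 8.09, 8.10, 8.20, 8.13 and 8.19 in AxL and 8.68, 8.08, 8.93, 8.53 and 8.68 in TPlp+AxL. Here TPlp+AxL 2 was below all AxL mice and the other 4 were above them, and the change of 0.44 did not pass (limma adjusted p = 0.150). Ifit3 had the same arrangement of mice, with a change of 0.39 (limma adjusted p = 0.309).

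Among the RNA-binding sensors and enzymes, 6 of 7 measured genes had positive changes, the median was 0.13, and 0 passed the test in limma (4 at an unadjusted p under 0.05). Oasl2, an oligoadenylate synthetase-like protein, had log2 signals of 7.91, 7.94, 8.13, 8.01 and 8.13 in AxL mice and 8.35, 7.84, 9.89, 8.71 and 9.05 in TPlp+AxL mice. TPlp+AxL 3 was far above its own group while TPlp+AxL 2 was below every AxL mouse, and the SD was 0.77 in TPlp+AxL against 0.10 in AxL. The change of 0.74 (SE 0.29) did not pass (limma adjusted p = 0.287), and it was 0.46 without TPlp+AxL 3. Oas1a, Oas2 and Oas3 encode oligoadenylate synthetases, which make the messenger that activates the antiviral nuclease RNase L. Oas1a averaged 8.83 ± 0.04 (SD, n = 5) in AxL and 9.20 ± 0.23 in TPlp+AxL, with no overlap. Oas3 gave 7.88, 7.94, 7.94, 7.85 and 7.90 against 7.95, 8.04, 8.02, 7.99 and 7.95. Its groups did not overlap either, but the change was small, at 0.09 (limma adjusted p = 0.280).

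The lowest changes of the 31 were also in this group. Oasl1, which restrains Irf7 translation, gave 7.81, 7.84, 7.75, 7.73 and 7.94 in AxL and 7.91, 7.91, 7.94, 7.92 and 7.82 in TPlp+AxL. AxL 5 was the highest of all 10 mice, so no TPlp+AxL mouse lay above every AxL mouse, and the change was 0.09 (limma adjusted p = 0.413). Adar, which edits adenosine to inosine in double-stranded RNA, gave 10.70, 10.68, 10.76, 10.997 and 10.74 in AxL and 10.61, 10.63, 10.64, 10.58 and 10.77 in TPlp+AxL. Here 4 TPlp+AxL mice were below all AxL mice and TPlp+AxL 5 was not. The Adar change of -0.13 (95% interval -0.26 to 0.01) did not pass (limma adjusted p = 0.366), and the other Adar probe sets gave 0.10 and 0.03. The change was -0.07 without AxL 4, -0.037 after cyclic loess normalization and -0.035 after repeated quantile normalization. Eif2ak2, the kinase PKR that stops translation on sensing double-stranded RNA, changed by 0.13 on its brightest probe set, with overlap of the groups, and by 0.21 and 0.25 on the others.

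ISG15 is a ubiquitin-like protein that interferon induces and attaches to other proteins, and 5 genes of this conjugation and ubiquitin ligase group were measured. All 5 had positive changes with an unadjusted p under 0.05, their median was 0.22, and Trim21 rose. Usp18, which removes ISG15 and damps the interferon receptor, had log2 signals of 8.24, 8.34, 8.27, 8.35 and 8.23 in AxL mice and 8.75, 8.32, 9.41, 8.80 and 8.94 in TPlp+AxL mice. TPlp+AxL 2 was again the one mouse inside the AxL range. Usp18 changed by 0.56 (SE 0.15, limma adjusted p = 0.138). Trim25, a ubiquitin ligase that activates the sensor RIG-I, changed by 0.22, and its other probe sets gave 0.17 and 0.03. Herc6, the main mouse ISG15 ligase, changed by 0.13 on its brightest probe set and by 0.24, 0.47 and 0.05 on the others, with a limma adjusted p of 0.129 for the largest of these. Uba7, the ISG15-activating enzyme, changed by 0.12, and its other probe sets gave 0.17 and 0.25.

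Inhibitors of viral entry, replication and budding were all measured, 7 of 7, and all had positive changes (median 0.38), with 0 passing the test in limma and 5 at an unadjusted p under 0.05. Samd9l, a restriction factor for poxviruses, had log2 signals of 8.43, 8.53, 8.50, 8.48 and 8.42 in AxL mice and 8.91, 8.59, 9.52, 9.02 and 8.96 in TPlp+AxL mice. The groups did not overlap, with TPlp+AxL 2 the lowest and TPlp+AxL 3 the highest of the treated mice, and the change was 0.53 (SE 0.13, limma adjusted p = 0.101). Bst2, or tetherin, holds budding virus particles at the cell surface. Its signals were 8.43, 8.76, 9.19, 8.41 and 8.81 in AxL and 8.90, 8.54, 10.43, 9.20 and 9.03 in TPlp+AxL. Ifitm3, which hinders fusion of viruses with endosomes, gave 11.40, 11.88, 12.16, 11.66 and 11.52 in AxL and 11.85, 11.79, 12.89, 12.23 and 12.12 in TPlp+AxL.

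For both Bst2 and Ifitm3 the groups overlapped, and AxL 3, the array with the highest choroid plexus marker signal, was the highest of the AxL mice. Bst2 changed by 0.50 (limma adjusted p = 0.454) and Ifitm3 by 0.45 (limma adjusted p = 0.339). Without AxL 3, AxL 5 and TPlp+AxL 1 the changes were 0.77 for Bst2 and 0.61 for Ifitm3 (limma adjusted p = 0.50 and 0.443). Without TPlp+AxL 3, the highest mouse for both genes, the changes were 0.20 for Bst2 and 0.27 for Ifitm3 (limma adjusted p = 0.690 and 0.538). Rsad2, or viperin, which makes a chain-terminating nucleotide, averaged 9.18 ± 0.11 (SD, n = 5) in AxL and 9.56 ± 0.21 in TPlp+AxL without overlap (change 0.38, limma adjusted p = 0.0934). Its other probe sets gave 0.12 and 0.26. Cmpk2, encoded beside Rsad2, changed by 0.25 (-0.0037 on its other probe set), and the Mx1 GTPase by 0.14. Mx2 gave 8.24, 8.28, 8.29, 8.08 and 8.31 against 8.30, 8.27, 8.43, 8.43 and 8.32, with overlap and a change of 0.11 (limma adjusted p = 0.370), or 0.07 without AxL 4.

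The largest changes of the 31 were in a mixed group of other induced genes, in which all 6 measured genes had positive changes (median 0.51) and 0 passed in limma on their brightest probe set (4 at an unadjusted p under 0.05). Ifi35, an interferon-induced leucine zipper protein, had log2 signals of 8.73, 8.77, 9.11, 8.75 and 8.82 in AxL mice and 9.55, 8.97, 10.66, 9.99 and 9.94 in TPlp+AxL mice. TPlp+AxL 2 lay below AxL 3, and the other 4 treated mice lay above every AxL mouse. The change was 0.99 (SE 0.24), a fold of 1.98 (limma adjusted p = 0.0995). The name of this brightest Ifi35 probe set marks sequence shared with other transcripts. A dimmer Ifi35 probe set, whose name also marks shared sequence, gave 7.99, 7.90, 8.15, 8.04 and 8.17 in AxL and 8.47, 8.26, 8.62, 8.40 and 8.48 in TPlp+AxL. There the groups did not overlap and the change of 0.40 passed (SE 0.07, limma adjusted p = 0.0239). The remaining Ifi35 probe set, whose name bears no such mark, gave 0.54 (limma adjusted p = 0.182). Probe sets rose in 2 of 54 cases for these genes, against 0.646% of all probe sets.

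Rtp4, a chaperone of membrane receptors that also restrains interferon responses, had log2 signals of 9.62, 9.60, 9.81, 9.44 and 9.62 in AxL mice and 10.33, 9.75, 11.32, 10.58 and 10.63 in TPlp+AxL mice. Again TPlp+AxL 2 was the one treated mouse not above every AxL mouse, and the change was 0.90 (SE 0.22, limma adjusted p = 0.0971), while the dimmer Rtp4 probe set gave 0.09. Xaf1, which promotes cell death, gave 9.65, 9.87, 10.01, 9.40 and 9.61 in AxL and 9.95, 9.74, 11.46, 10.56 and 10.39 in TPlp+AxL. TPlp+AxL 1 and 2 lay inside the AxL range, and the change of 0.71 (SE 0.27) did not pass (limma adjusted p = 0.272). It was 0.45 without TPlp+AxL 3, and the other Xaf1 probe set gave 0.09. Sp100, a component of nuclear bodies, had the second lowest adjusted p of the 31 at a small change, 7.10 ± 0.05 (SD, n = 5) in AxL and 7.33 ± 0.10 in TPlp+AxL without overlap (change 0.23, limma adjusted p = 0.0637; other probe set 0.10). Lgals3bp, a secreted glycoprotein, changed by 0.31, or 0.16 without TPlp+AxL 3, with overlapping groups. Tor3a, an ATPase of the endoplasmic reticulum, changed by 0.11 with overlapping groups, and its other probe sets gave 0.26 and 0.02. A fold of at least 1.5 was reached by 5 of the 31 genes, Ifi35, Rtp4, Oasl2, Xaf1 and Ifit1, and in each the groups overlapped.

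The TPlp+AxL mice differed widely among themselves. The mean over the 31 genes, relative to the AxL mean, was 0.23 in TPlp+AxL 1, 0.027 in TPlp+AxL 2, 0.72 in TPlp+AxL 3, 0.35 in TPlp+AxL 4 and 0.38 in TPlp+AxL 5, while the AxL mice ran from -0.05 to 0.08. TPlp+AxL 2 was thus inside the AxL range and TPlp+AxL 3 was highest. TPlp+AxL 3 was the highest mouse of its group for 26 of 31 genes, against 18.8% of all genes, and the highest of all 10 mice for 25. TPlp+AxL 2 was the lowest of its group for 22 of 31, against 28.0% of all genes. It lay above every AxL mouse for 11 of the genes, compared with 18, 28, 26 and 26 for TPlp+AxL 1, 3, 4 and 5. In 14 genes exactly 4 treated mice were above all AxL mice, and in 11 of these the remaining mouse was TPlp+AxL 2. For these counts against the AxL mice, and for the highest of all 10 mice, shares over all genes were not computed. Those counts therefore describe these genes and do not show that they differ from other genes.

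**Figure D2:**
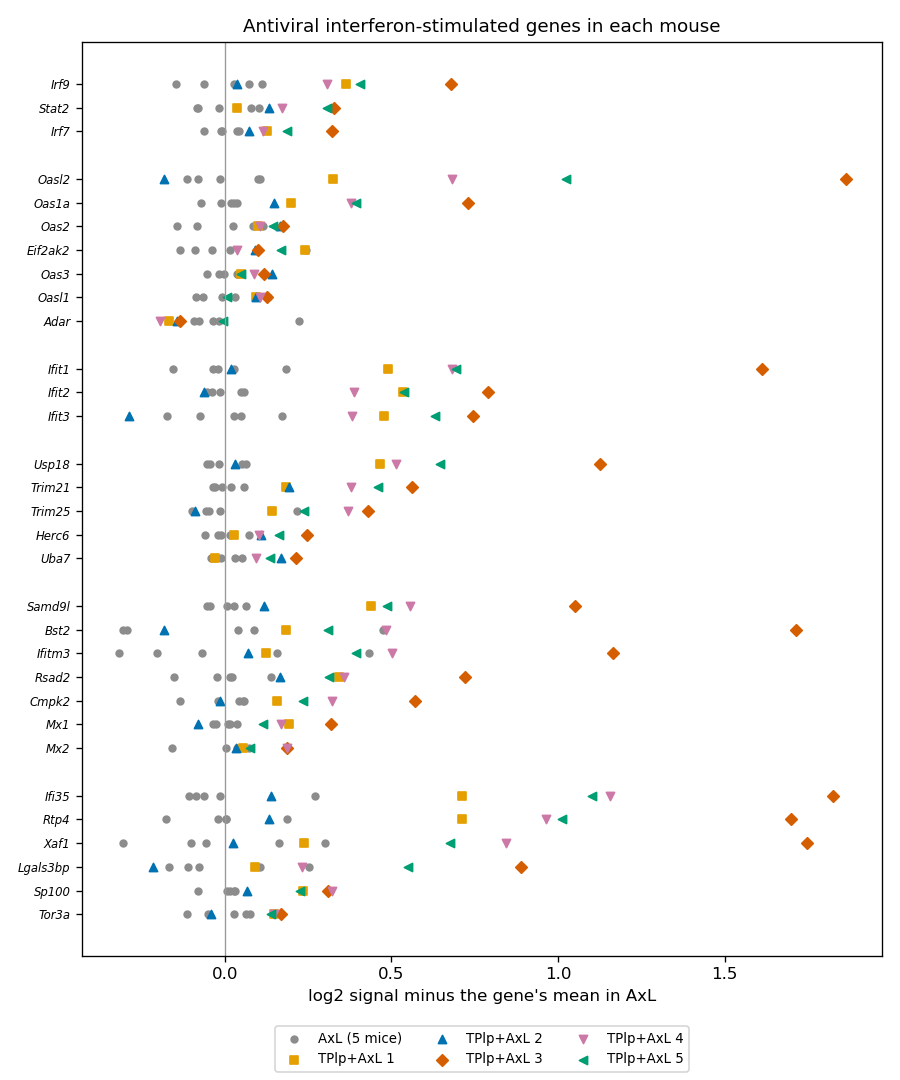
Log2 signal of each of the 31 genes in each mouse minus that gene's AxL mean (horizontal axis), with AxL mice in grey and each TPlp+AxL mouse in its own colour and shape, by role group. TPlp+AxL 3 is the highest of its group for 26 genes and TPlp+AxL 2 the lowest for 22.

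The spread between mice was larger in the treated group. The SD was larger in TPlp+AxL than in AxL for 26 of 31 genes (83.9%), against 31.3% of all genes. The median SD of the 31 genes was 0.09 in AxL and 0.21 in TPlp+AxL, and the median ratio was 2.29 against 0.761 over all genes. Oasl2, Bst2, Xaf1 and Ifi35 varied most among the treated mice, and Adar, Oas2, Oasl1, Eif2ak2 and Mx2 varied less there than among AxL mice.

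**Figure D3:**
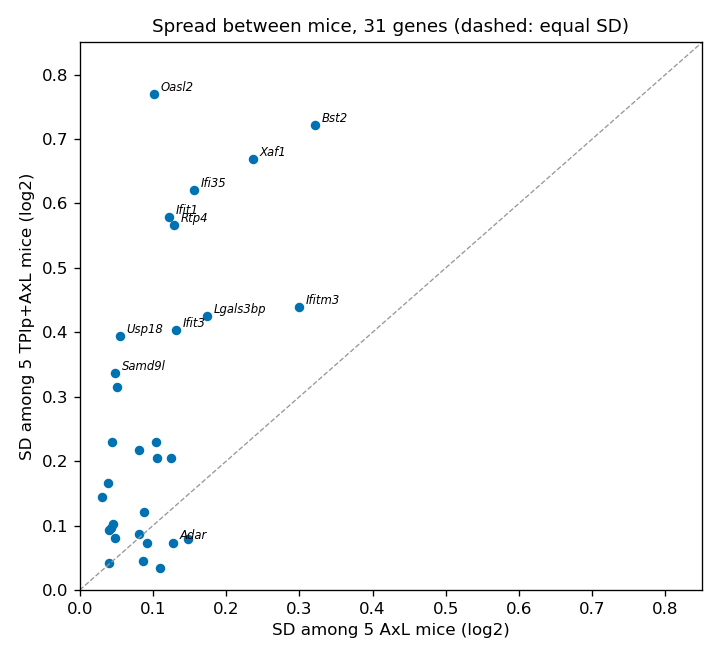
SD among the 5 AxL mice (horizontal axis) and among the 5 TPlp+AxL mice (vertical axis) for each of the 31 genes, in log2 units. Points above the dashed line of equal SD are the 26 genes with the larger spread in TPlp+AxL.

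Leaving out 1 mouse changed the number of genes that passed. Without TPlp+AxL 2, 9 of the 31 rose (Irf9, Ifit2, Ifit3, Usp18, Trim21, Samd9l, Ifi35, Rtp4 and Sp100), against 1.30% of all genes. Rtp4 then had a log2 change of 1.10 (limma adjusted p = 0.0103) and Ifit2 one of 0.56 (limma adjusted p = 0.00306). The count was 1 without TPlp+AxL 1, against 0.813% of all genes. It was 0 without each of the other 8 mice, against 0.539% to 0.89% of all genes. The median change of the 31 genes was 0.20 without TPlp+AxL 3 and 0.40 without TPlp+AxL 2. With both of these mice left out, a setting added after seeing the data, 10 of the 31 rose against 1.07% of all genes, and Trim21 was not among them (limma adjusted p = 0.05003).

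**Figure D4:**
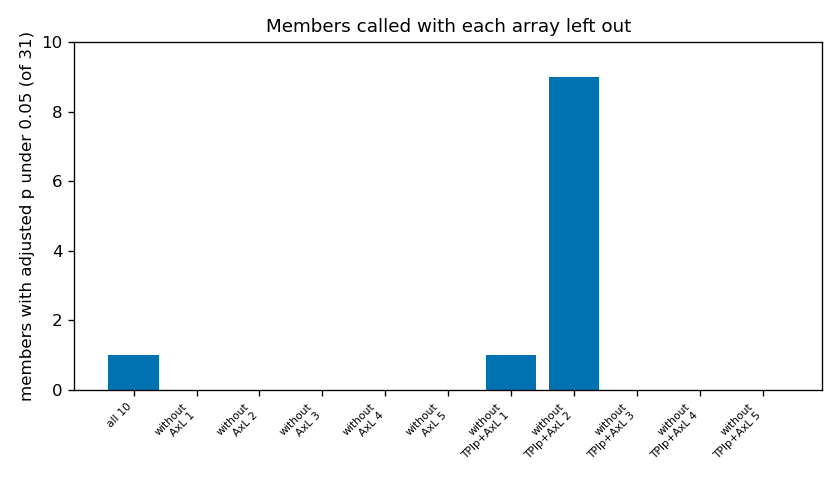
Number of the 31 genes with a limma adjusted p under 0.05 (vertical axis) with all 10 arrays and with each array left out in turn (horizontal axis). The count is 1 with all arrays, 9 without TPlp+AxL 2, 1 without TPlp+AxL 1 and 0 without each other array. Of all genes, 0.978% rose with all arrays and 0.539% to 1.3% with 1 array left out.

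Upstream of these genes, no difference in the type I interferon ligands passed the test. Of 8 measured ligand genes, 0 rose and 0 fell in limma, 0 had an unadjusted p under 0.05, and the median change was 0.04. Their mean log2 signal was 7.22 to 7.33 in AxL mice and 7.27 to 7.38 in TPlp+AxL mice. Ifnb1, interferon beta, changed by 0.07 (limma adjusted p = 0.582), Ifna11 by 0.07 and Ifnab by 0.06 (limma adjusted p = 0.559 and 0.551). In AxL the ligand genes averaged from 6.64 (Ifna11) to 8.26 (Ifna1), and all but Ifna1 lay below every array median. Changes of such dim probe sets are understated, so the lack of a call does not show that the ligands were unchanged. Ifna6, Ifna12, Ifna13, Ifna14, Ifne and Ifnk were not measured. Over all 18193 genes, 178 rose and 51 fell. The shared receptor's subunits changed by -0.08 (Ifnar1) and 0.20 (Ifnar2), and neither passed (limma adjusted p = 0.575 and 0.305).

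Among 15 measured receptors, kinases and transcription factors of both interferon pathways, 4 rose and 0 fell. Over all 18193 genes, 178 rose and 51 fell. Socs3, a feedback inhibitor of cytokine receptors, rose by 1.24 (limma adjusted p = 0.00780), and Irf8, a myeloid transcription factor, by 0.65 (limma adjusted p = 0.0204). Ifngr1, the ligand-binding chain of the interferon gamma receptor, rose by 0.21 (limma adjusted p = 0.0367). Irf1, which interferon gamma strongly induces, gave 9.34, 9.30, 9.32, 9.37 and 9.34 in AxL and 10.39, 9.71, 10.30, 10.42 and 10.63 in TPlp+AxL. All treated mice were above all AxL mice for Irf1, TPlp+AxL 2 was the lowest of them, and the rise was 0.96 (limma adjusted p = 0.00644). The count of this list was 2 without AxL 1, AxL 5, TPlp+AxL 1, TPlp+AxL 3, TPlp+AxL 4 or TPlp+AxL 5. In those settings 0.539% to 0.813% of all genes rose.

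Of 14 nucleic acid sensors and their adaptors, 3 rose and 0 fell, with a median change of 0.15. They were Ifi204 (1.55), a DNA sensor of the interferon-inducible p200 family, Zbp1 (0.94), a sensor of left-handed nucleic acid, and Sting1 (0.37), the adaptor of cytosolic DNA sensing, with limma adjusted p of 0.0132, 0.0173 and 0.00963. Of 40 further interferon-stimulated genes, 9 rose and 0 fell, 36 had a positive change and the median was 0.22. Gbp3 (1.42), a guanylate-binding protein, Cd274 (1.11), the checkpoint ligand PD-L1, Dtx3l (0.63), a ubiquitin ligase, and Slfn2 (0.61), of the schlafen family, had the largest changes of those that rose. The count of these further genes was 15 without TPlp+AxL 2, where 1.3% of all genes rose. It was 5 without AxL 5, TPlp+AxL 4 or TPlp+AxL 5, where 0.539% to 0.649% of all genes rose. With all arrays, 178 of all 18193 genes rose and 51 fell.

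Genes listed here as interferon gamma-preferred had larger changes, as 14 of 22 rose, 0 fell and the median was 1.29. Over all genes 0.978% rose and 51 of 18193 fell. Which interferon acted on the genes of either list was not tested. Iigp1 (2.45), Gbp2 (2.39), Gbp6 (2.09) and Igtp (2.06), GTPases that act against intracellular pathogens, had the largest changes. The list's mean log2 signal was 8.35 to 8.44 in AxL and 8.90 to 10.27 in TPlp+AxL. Relative to AxL it was 1.19, 0.51, 1.87, 1.48 and 1.47 in TPlp+AxL 1 to 5, so TPlp+AxL 2 was lowest and TPlp+AxL 3 highest here too, with every treated mouse above the AxL mice. Ifng itself gave 6.65, 6.57, 6.55, 6.60 and 6.54 in AxL and 7.16, 6.62, 6.98, 7.01 and 7.18 in TPlp+AxL. TPlp+AxL 2 lay inside the AxL range for Ifng and the other 4 were above it, and the change of 0.41 (95% interval 0.21 to 0.61) did not pass (limma adjusted p = 0.0706). Without AxL 3, AxL 5 and TPlp+AxL 1, 0 genes passed in each of these 5 pathway lists. In that setting 1 of all 18193 genes (0.00550%) rose, so the counts of 0 set no list apart.

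**Figure D5:**
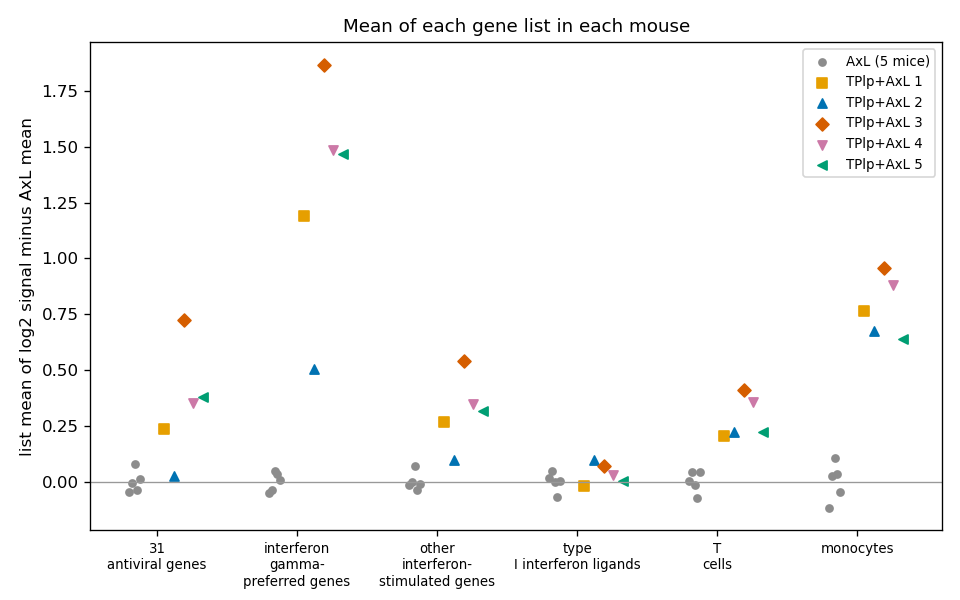
Mean log2 signal of each gene list in each mouse minus the AxL mean of that list (vertical axis), for the 31 antiviral genes, 3 interferon lists of other genes, and T cell and monocyte markers (horizontal axis). TPlp+AxL 2 lies among the AxL mice for the antiviral genes (0.027) and at 0.51 for the interferon gamma-preferred genes.

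Some markers of infiltrating cells also differed between the groups, where 0.978% of all genes rose. Of 10 T cell markers, 2 rose (Cd3g and Cd3d) and all 10 had positive changes, with a list mean of 7.45 to 7.57 in AxL and 7.73 to 7.94 in TPlp+AxL. Relative to AxL, the T cell list was 0.20, 0.22, 0.41, 0.36 and 0.22 in TPlp+AxL 1 to 5. The list mean of TPlp+AxL 2 was therefore not the lowest of the treated mice, but those of TPlp+AxL 1, 2 and 5 were close. For Cd3g and Cd3d, the markers that rose, TPlp+AxL 2 was the lowest treated mouse (7.33 and 8.10). Of 7 monocyte markers, 4 rose (Chil3, Plac8, Ms4a4c and F10), and the median change was 0.39. Ccr2 (0.13), Vcan (0.10) and Fn1 (-0.0017) did not pass. The monocyte list mean was 8.58 to 8.81 in AxL and 9.34 to 9.66 in TPlp+AxL. Of 8 neutrophil markers 3 rose (S100a9 by 1.18, S100a8 by 1.14 and Mmp8 by 0.24), and the median change was 0.11. Cxcr2 (0.14), Ngp (0.08), Ltf (0.07), Elane (0.06) and Camp (-0.05) did not pass. The neutrophil list mean was 7.77 to 8.03 in AxL and 8.21 to 8.32 in TPlp+AxL. Its count without AxL 3, AxL 5 and TPlp+AxL 1 was not computed. The T cell count was 1 without AxL 1, AxL 3, AxL 4, AxL 5 or TPlp+AxL 4, where 0.539% to 0.879% of all genes rose. Without AxL 3, AxL 5 and TPlp+AxL 1 together the counts were 0 for T cells and 1 for monocytes, where 1 of all 18193 genes (0.00550%) rose.

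Plasmacytoid dendritic cells are the cells best known for making type I interferon. Of 8 of their markers 0 rose and 1, Pacsin1, which neurons also express, fell by 0.27. Changes were positive for 5 of the 8, and 3 had an unadjusted p under 0.05 in limma, Pacsin1 with Ly6d (0.16) and Cox6a2 (0.15), which did not pass (limma adjusted p = 0.134 and 0.268). Siglech (-0.11), which is also in the microglial list here, and Tcf4 (-0.06), the brightest of the list at 12.83 in AxL, had negative changes too. The list mean, over markers that differed in direction, was 9.05 to 9.12 in AxL and 9.06 to 9.11 in TPlp+AxL. Because it mixes such markers with the others, it cannot show whether these cells differed. Markers of B cells (6), microglia (11), astrocytes (9), endothelium (9), oligodendrocytes (8), meninges (9), thalamus (8), blood (3) and choroid plexus (10) had 0 genes that passed in either direction in limma, with 1, 3, 3, 5, 5, 0, 0, 0 and 0 at an unadjusted p under 0.05. Changes were positive for 0 of the 9 endothelial and 0 of the 8 oligodendrocyte markers. They were positive for 1 of the 9 astrocyte and 2 of the 11 microglial markers. The counts were 0 of 10 for choroid plexus, 0 of 9 for meninges, 0 of 8 for thalamus and 3 of 14 for neurons. For B cells and blood they were 2 of 6 and 2 of 3. Over all genes 37.3% had a positive change, 51 of 18193 fell, and 2202 were lower at an unadjusted limma p under 0.05. The endothelial list mean was 8.27 to 8.53 in AxL and 8.17 to 8.27 in TPlp+AxL, and the oligodendrocyte mean was 11.44 to 11.83 and 11.33 to 11.56. Of 14 markers of hippocampal neurons 1 fell. The part of any of these cell types in the signal of the antiviral genes was not tested.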

How the data were processed

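Biotin-labelled cRNA of 10 hippocampi was hybridised to Affymetrix mouse arrays, 1 per mouse. The deposited values are log2 signals, and RMA is the tool that the submitters' processing notes name; its software, version and any detection calls are not stated in the sources used here. Of 45101 probe sets, 64 were Affymetrix controls; the remaining 45037 entered limma 3.58.1 (R 4.3.3) as deposited, with lmFit, eBayes and no trend. Adjusted p-values are Benjamini-Hochberg values over these 45037, with a threshold of 0.05. RMA pulls dim signals together, so changes of dim probe sets are understated. Symbols came from the platform annotation, updated through Entrez identifiers with a RefSeq table of GRCm38.p6 for 34741 of the 34945 probe sets with 1 symbol (932 had several, 9160 none). Probe sets with 1 symbol covered 18193 genes. The number of arrays limits the precision. A limma p-value weighs a mean difference against the spread between these mice, pooled over both groups and moderated across probe sets. That pooling takes 1 variance for both groups, while the median SD ratio of TPlp+AxL to AxL was 2.29 for the 31 genes.

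The genes and lists were chosen with earlier results of these data known. All 34 genes are named. Values per array are given for genes past the threshold, the 10 largest and 4 lowest changes, and genes whose probe sets differed in call. Of each other list, up to 4 genes past the threshold with the largest change are named, or the 2 with the smallest p, plus Ifng, Ifnb1 and Irf1. List genes without a probe set of their own were not analysed here. Promoter matches were searched in RefSeq windows on both strands. Alternatives covered the variance model, filters, scaling, weights, a replicate block, a choroid plexus covariate, probe set choice, the threshold and left-out arrays.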

Additional observations from a re-analysis of the deposited data

Results flagged for a closer look

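In 6 of the 62 sets of 5 mice examined (31 genes in 2 groups), 1 mouse stood apart from the other 4 by Dixon's gap test at the 95% level, where chance gives about 1 in 20. The value given is the gap to the nearest mouse as a share of the group's whole range. In AxL 3 Trim25 was at 8.76 against 8.44 to 8.53 in the other AxL mice (0.734) and Ifi35 was at 9.11 against 8.73 to 8.82 (0.748). In AxL 4 Adar was at 10.997 against 10.68 to 10.76 (0.767). Sp100 was low in AxL 2, at 7.02 against 7.10 to 7.13 (0.779). Tor3a was low in TPlp+AxL 2, at 7.75 against 7.93 to 7.96 (0.857), and Oasl1 was low in TPlp+AxL 5, at 7.82 against 7.91 to 7.94 (0.735).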

How the results depend on the processing

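The median log2 change of the 31 genes was positive in every alternative run, from 0.198 to 0.396, and no gene changed sign in any alternative that measured it. The count of genes that passed, 1 as reported, was more variable. It was 2 with a trended and robust variance (against 1.15% of all genes that rose) and with array weights (1.4%). Adjustment over 1 probe set per gene also gave 2 (1.18%). The mean of a gene's probe sets gave 3 (1.25%), and an adjusted p under 0.1 gave 5 (1.49%). The count was 0 with array medians subtracted (Trim21 at limma adjusted p = 0.0504), where 0.896% of all genes rose. It was 0 with the choroid plexus covariate (Trim21 at 0.0850), against 0.813% of all genes. Without AxL 3, AxL 5 and TPlp+AxL 1 together it was 0 (Trim21 at 0.213), against 0.0055%. With 1 array left out in turn the count ran from 0 to 9, where 0.539% to 1.3% of all genes rose. With TPlp+AxL 2 and TPlp+AxL 3 left out, an alternative chosen after seeing the data, it was 10, against 1.07%. The replicate block gave 0 (Trim21 at limma adjusted p = 0.0604), against 0.676% of all genes. Mice of the same number correlated from -0.224 to 0.363 in their deviations, so the numbers were not taken as pairs. The count stayed at 1 with dim probe sets left out, repeated quantile normalization, cyclic loess, a random replicate block and shared-sequence probe sets left out. In these settings 0.918% to 1.15% of all genes rose. Trim21 passed in 12 of the 25 alternatives. Among these, the threshold of 0.1 and the omission of shared-sequence probe sets reused its main fit (limma adjusted p = 0.0392), so they could not have failed. Over the 31 genes and these alternatives, 27 results passed that had not, 13 no longer passed, 729 kept their side of the threshold and 0 reversed. The cause of these differences was not tested. No detection calls were used, so signal over background is unknown for the dim genes.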
